A study of Homo sapiens with 4 samples.

Results

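The cytosolic ribosomal protein genes were followed in MV4-11 cells, a human acute myeloid leukemia (AML) cell line, after knockdown of ANP32B, a member of the acidic nuclear phosphoprotein family that binds histones. The members are the protein-coding genes on autosomes or the X chromosome whose symbol is RPL or RPS with a number, RPLP with a number, or RPSA. The annotation held 84 such genes, and 82 of them were among the 18885 genes of the expression table. RPL3L and RPL10L were the members that the table did not list. Of the 82, 32 code for proteins of the small (40S) subunit and 50 for proteins of the large (60S) subunit, and the rule used no measured value. RNA was measured in 2 NC libraries, for which the labels give no shRNA and the study names a control hairpin (sh-NC), and in 2 sh-ANP32B libraries, which carried an shRNA against ANP32B. The data columns of both sh-ANP32B libraries bear the same tag, S3. Which of the study's hairpins this tag stands for, and the time after transduction, were not given in the sources used here. Effects of a particular hairpin apart from the loss of ANP32B were not tested. The labels do not say that the replicates were separate cultures, so the p-values measure the spread between these libraries, which may be technical.

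A ribosome is built from a 40S subunit, which reads the mRNA, and a 60S subunit, which joins the amino acids. Each subunit is a core of ribosomal RNA with one copy of most of its proteins, and the acidic stalk proteins are the main exception. The genes of these proteins lie apart from each other in the genome, are among the most strongly transcribed genes of dividing cells, and many host small nucleolar RNA (snoRNA) genes in their introns. Their mRNAs are known for starting with a run of pyrimidines, the 5′ terminal oligopyrimidine (TOP) tract, through which mTOR and LARP1 adjust their translation and stability. MYC is known as an activator of ribosome production.

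The starts of a few members are printed because the tract is the sequence feature the family is known for, and because they include members with large and with small changes and several of the paralogs described later. They are RefSeq reference sequence on GRCh38.p14, written 5′ to 3′ on the gene's strand, with 20 bases before and 20 bases from the annotated start, and capitals mark the run of C and T at the start.
RPS16 (chr19:39435930-39435969, minus strand): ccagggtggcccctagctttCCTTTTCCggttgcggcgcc
RPL18 (chr19:48619159-48619198, minus strand): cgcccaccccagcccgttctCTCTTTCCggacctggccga
RPS19 (chr19:41860235-41860274, plus strand): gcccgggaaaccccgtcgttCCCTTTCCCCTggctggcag
RPS15 (chr19:1438376-1438415, plus strand): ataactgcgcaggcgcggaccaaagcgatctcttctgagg
RPLP1 (chr15:69452798-69452837, plus strand): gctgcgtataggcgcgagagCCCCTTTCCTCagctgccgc
RPS9 (chr19:54200838-54200877, plus strand): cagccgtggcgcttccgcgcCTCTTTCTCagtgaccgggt
RPL22 (chr1:6199576-6199615, minus strand): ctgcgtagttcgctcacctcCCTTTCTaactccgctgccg
RPL22L1 (chr3:170870176-170870215, minus strand): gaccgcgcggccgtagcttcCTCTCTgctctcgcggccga
RPL26 (chr17:8383174-8383213, minus strand): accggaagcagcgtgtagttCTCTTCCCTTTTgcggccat
RPL26L1 (chr5:172958709-172958748, plus strand): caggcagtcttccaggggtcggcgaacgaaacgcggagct
RPS27 (chr1:153990742-153990781, plus strand): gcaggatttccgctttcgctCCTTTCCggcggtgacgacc
RPS27L (chr15:63157458-63157497, minus strand): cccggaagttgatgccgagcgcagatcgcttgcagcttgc
RPL7L1 (chr6:42879596-42879635, plus strand): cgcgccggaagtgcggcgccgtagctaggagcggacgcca

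A run of at least 5 bases of C and T that opens with C at an annotated start was found for 47 of the 67 members with a RefSeq promoter entry (70.1%), against 5.14% of all 27305 symbols in the promoter table. The longest run among the members had 19 bases. Of the sequences shown, those of RPS15, RPL26L1, RPS27L and RPL7L1 had no such run at the annotated start. In the window from 250 bases before to 50 bases after the start, searched on both strands, the letters CCGGAA were present in 58.2% of the matched members and 20.1% of all symbols, and GATGGC in 34.3% and 15.4%. CACGTG was present in 7.46% of the members and 8.77% of all symbols, and TATAAA in 10.4% and 14.0%. These matches describe letters in a window and show no binding.

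Expression is given in TPM, a transcript abundance scaled by gene length and to the same total in each library, so that each value is a share of its library. Levels can be compared between genes only as far as the gene lengths used were right, and these lengths were not given in the sources used here. The totals of the genes listed lay between 997271 and 998546, and the number of reads behind them is unknown, so no counting error can be given. ANP32B itself had 358 and 364 TPM in NC and 54.1 and 49.3 TPM in sh-ANP32B, which is 14.3% of the NC mean. Of 8 listed markers of AML and MV4-11 identity, SPI1, CEBPA and HOXA9 were well above 100 TPM and CD33, PTPRC and KMT2A were detected in every library, while MPO was not among the genes listed. FLT3 was the lowest of the listed markers, at 6.20 and 6.30 TPM in NC and 5.52 and 5.53 TPM in sh-ANP32B. In limma at an adjusted p below 0.05, 3 of the 8 listed markers rose, 1 fell and 4 were not called. Among all tested genes 26.0% rose and 19.7% fell. PTPRC, SPI1 and CD33 rose to 224%, 142% and 133% of the NC mean, and MEIS1 fell to 65.0% of it (adjusted p = 9.18e-05, 0.000335, 0.00300 and 0.00138). CEBPA, HOXA9, FLT3 and KMT2A were the markers not called. Of 7 markers of other cell types, HBB, HBG1, CD3E, EPCAM and COL1A1 were not listed, and PAX5 and ALB together reached 3.14 to 4.01 TPM per library. The members' TPM had a median absolute log2 difference between replicates of 0.0531 in NC and 0.0451 in sh-ANP32B. Over all tested genes it was 0.112 and 0.113. The members are far more abundant, with a median NC level of 1381 TPM against 13.3 TPM, and genes of matched level were not compared.

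The ribosomal protein genes were among the most abundant transcripts of these cells. Their NC means ran from 7.65 TPM for RPS27L to 4622 TPM for RPS2, with a median of 1381 TPM against 13.3 TPM over all tested genes. In NC, 49 members had a mean over 1000 TPM, 28 had 100 to 1000 TPM and 5 had less than 100 TPM. The latter were RPS27L, RPL26L1, RPL39L and RPL22L1, which are paralogs of other members, and RPL37, a 60S protein, which was named here after its values were seen. The canonical transcript of RPL37 is the longest of the members, at 7573 bases against a median of 827 bases. The gene lengths behind the TPM are not known, and the part of length in the low level of RPL37 was not tested. Among the 100 genes with the most TPM, 48 and 47 were members in the NC libraries, and 39 and 40 in the sh-ANP32B libraries.

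**Figure D1:**
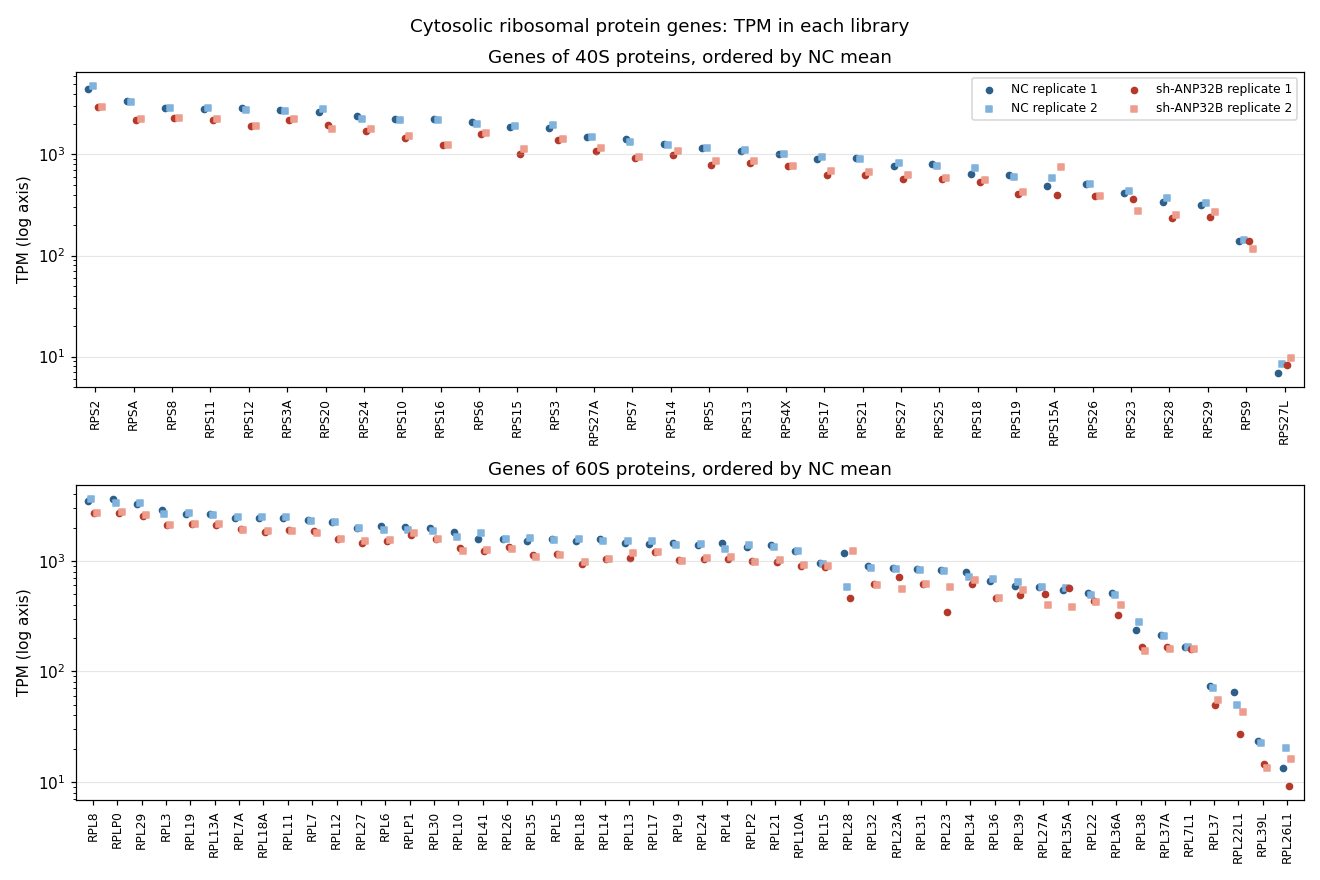
TPM of each of the 82 ribosomal protein genes in each of the 4 libraries, on a log axis, with the genes of 40S proteins above and those of 60S proteins below, each ordered by the NC mean. The red sh-ANP32B points lie under the blue NC points for 76 members, and the points of RPS15A and RPL28 are spread within both groups.

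The family as a whole took a smaller part of the transcriptome after ANP32B knockdown. The summed share of the members was 12.07% and 11.96% of the TPM in the NC libraries, and 8.87% and 9.07% in the sh-ANP32B libraries. Both sh-ANP32B libraries lay below both NC libraries, at 12.01% ± 0.0770 (SD, n = 2) in NC and 8.97% ± 0.140 (SD, n = 2) in sh-ANP32B. The difference was -3.04 percentage points, and the sh-ANP32B share was 74.7% of the NC share. An exact two-sided permutation test gave p = 0.333, the smallest value that 2 libraries against 2 can give, so this test cannot pass 0.05. Mitochondrial genes held 15.9% and 15.4% of the TPM in NC and 17.6% and 17.4% in sh-ANP32B, and without them the difference of the members' share was -3.36 percentage points. Since TPM are shares of bulk RNA, less ribosomal protein mRNA per cell cannot be told apart from more of other RNAs, or fewer cells of a type from less RNA per cell.

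**Figure D2:**
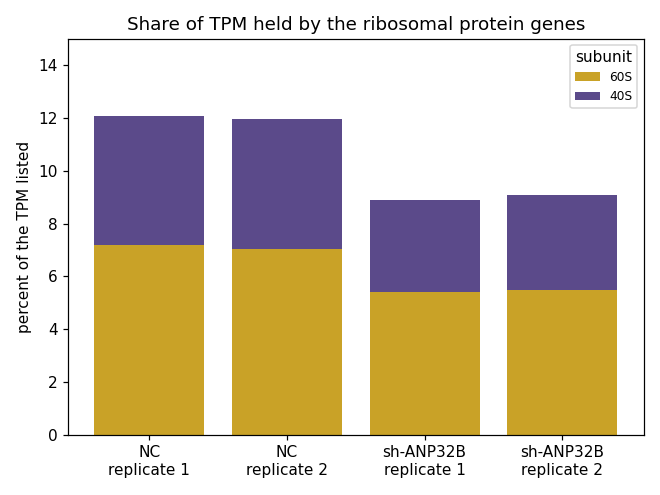
Percent of the listed TPM held by the ribosomal protein genes in each library, with the 60S genes (yellow) and the 40S genes (purple) stacked from 0. The total is 12.07% and 11.96% in the NC libraries and 8.87% and 9.07% in the sh-ANP32B libraries.

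The genes of both subunits held less of the TPM, and the 40S share was the lower relative to NC. The 40S genes held 4.89% and 4.92% of the TPM in NC and 3.47% and 3.58% in sh-ANP32B, which is 71.9% of the NC mean. The 60S genes held 7.18% and 7.04% in NC and 5.40% and 5.50% in sh-ANP32B, which is 76.6% of the NC mean. The ratio of 60S to 40S TPM, which no scaling of a whole library can change, was 1.47 and 1.43 in NC and 1.55 and 1.54 in sh-ANP32B. The groups did not overlap in this ratio, and its exact permutation p was again the smallest possible, 0.333.

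Gene by gene, 74 of the 82 members fell after knockdown and none rose, at an adjusted p below 0.05 in limma, and none rose before adjustment either. Among all 16937 tested genes, 19.7% fell and 26.0% rose by the same rule. The median log2 fold change of the members, on the log2(TPM + 1) scale, was -0.41, and its quartiles were -0.50 and -0.34. Over all tested genes the median was 0.08, with quartiles at -0.26 and 0.45. Of the members, 80 had a negative fold change and 81 lay below the median of all tested genes, and 16.2% of all tested genes lay below the members' median. Most single changes were small: at a p below 0.05, taken here before adjustment, together with a change of more than 0.5 on the log2 scale, 22 members fell and none rose, against 10.8% of all tested genes that fell and 20.2% that rose. Both sh-ANP32B libraries lay below both NC libraries for 76 members (92.7%), which held for 32.1% of all tested genes. The other 6 members overlapped between the groups.

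The members are abundant, and abundant genes fell more often than others. Of the 1557 tested genes with at least 100 TPM that are no members, 660 (42.4%) fell at an adjusted p below 0.05. Of the same 1557 genes, 523 rose and 374 were not called, and the median log2 fold change was -0.06. Among all 16937 tested genes, 3342 fell, 4405 rose and 9190 were not called. Abundant genes were thus called more often in both directions. The share of members that fell was 90.2%. The size of the members' change also depended on the scaling. Quantile normalization moved the median of all tested genes from 0.08 to -0.04, and the members' median relative to it was -0.49 without and -0.25 with that step. With median-of-ratios scaling the relative median was -0.50. Of all genes called at an adjusted p below 0.05, 43.1% fell in the test as reported, 54.0% with median-of-ratios scaling and 52.7% after quantile normalization.

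**Figure D3:**
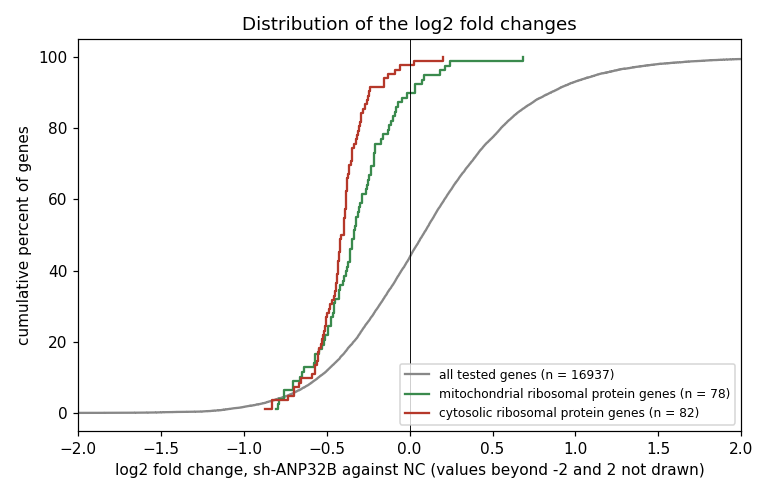
Cumulative percent of genes by log2 fold change for the 82 cytosolic ribosomal protein genes (red), 78 mitochondrial ribosomal protein genes (green) and all 16937 tested genes (grey). The red curve rises within a narrow range around its median of -0.41, while the grey curve is centred at 0.08.

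Of the 32 members of the 40S subunit, 29 fell, with a median change of -0.42 on the log2 scale, and 11 passed these p and fold limits. RPS16, whose tail reaches the decoding centre of the small subunit, had 2236 and 2188 TPM in NC and 1240.2 and 1244 TPM in sh-ANP32B. Its replicates nearly coincided and the groups were far apart, with a log2 fold change of -0.83 (SE 0.033, adjusted p = 9.69e-05). RPS15, which takes part in the export of the small subunit from the nucleus, had 1888 and 1924 TPM in NC and 1003 and 1141 TPM in sh-ANP32B, a log2 fold change of -0.83 (SE 0.065, adjusted p = 0.000432). The groups of RPS15 were separate as well. RPSA, known both as a 40S protein and as the laminin receptor, had 3381 and 3323 TPM in NC and 2219.5 and 2244 TPM in sh-ANP32B, and fell by 0.59 on the log2 scale (adjusted p = 0.000204). RPS19, the gene most often mutated in Diamond-Blackfan anemia, had 628 and 599 TPM in NC against 408 and 427 TPM in sh-ANP32B, and fell by 0.56 on the log2 scale (adjusted p = 0.000432). Neither RPSA nor RPS19 overlapped between the groups.

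Other well-known 40S genes changed less. RPS3, which lies where the mRNA enters the subunit, had 1831 and 1961 TPM in NC and 1405 and 1426 TPM in sh-ANP32B, with a log2 fold change of -0.42. RPS27A, whose product is made as a fusion with ubiquitin, had 1493 and 1489 TPM in NC and 1083 and 1147 TPM in sh-ANP32B, also with -0.42. RPS6, the 40S protein phosphorylated by S6 kinases downstream of mTOR, had 2090.4 and 2016 TPM in NC against 1602 and 1630.3 TPM in sh-ANP32B, with a log2 fold change of -0.35. RPS14, the gene whose loss marks the 5q- syndrome, had 1263 and 1238 TPM in NC and 987 and 1072 TPM in sh-ANP32B, with the smallest change of these, -0.28 (SE 0.048, adjusted p = 0.00630). All of these fell, and in each the highest sh-ANP32B library was below the lowest NC library.

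RPS27L, RPS15A and RPS9 were the 40S members that were not called. RPS15A had 483 and 590.1 TPM in NC and 393 and 749 TPM in sh-ANP32B, so that the sh-ANP32B libraries lay on either side of NC. Its log2 fold change was 0.02 with a 95% interval from -0.71 to 0.76 (adjusted p = 0.959), and its sign was negative with median-of-ratios scaling. The call of RPS15A depended on a single library: without sh-ANP32B replicate 1 it was 0.49 (adjusted p = 0.0236), and without sh-ANP32B replicate 2 it was -0.44 (adjusted p = 0.0351). RPS15A shares 218 exonic bases with a protein-coding gene on the same strand, so reads could be split between both. That gene had 23.8 and 2.23 TPM in NC and 22.3 and 14.1 TPM in sh-ANP32B. The part of such splitting in the spread of RPS15A was not tested. RPS9, a protein of the mRNA entry region, had 138 and 144 TPM in NC and 139 and 115 TPM in sh-ANP32B, a log2 fold change of -0.16 (adjusted p = 0.208). Only sh-ANP32B replicate 2 of RPS9 lay below NC, and without sh-ANP32B replicate 1 RPS9 was called lower at -0.29 (adjusted p = 0.0148).

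**Figure D4:**
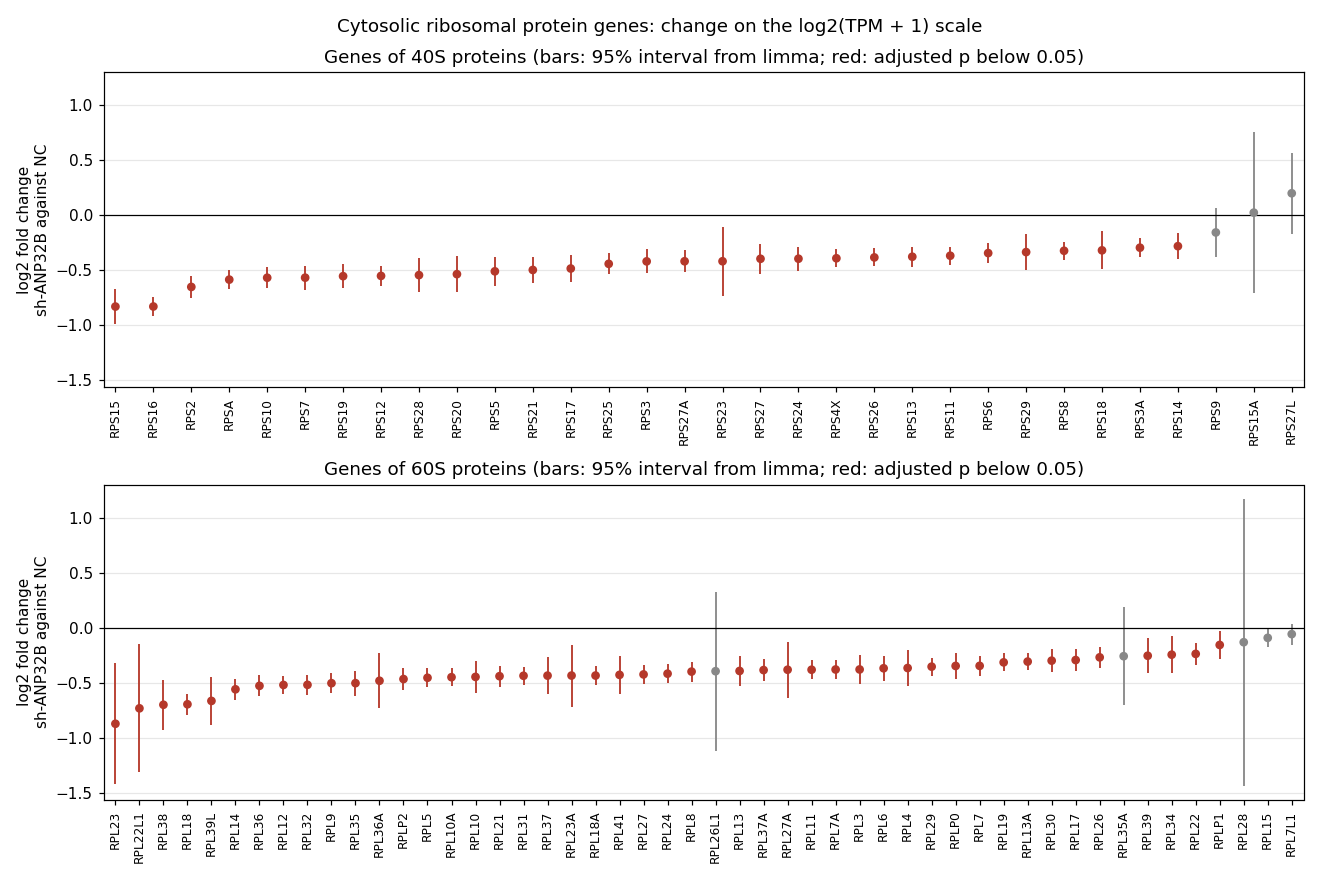
log2 fold change of sh-ANP32B against NC for each ribosomal protein gene, on the log2(TPM + 1) scale with 95% intervals from limma, 40S genes above and 60S genes below. Red points passed an adjusted p of 0.05: 29 of 32 genes of the 40S subunit and 45 of 50 of the 60S subunit, all below 0.

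Of the 50 members of the 60S subunit, 45 fell, with a median of -0.40, and 11 passed the same limits. RPL23, which is known to bind MDM2 outside the ribosome, had 822 and 817 TPM in NC and 347 and 575 TPM in sh-ANP32B. It had the lowest fold change of the family, -0.87, but its sh-ANP32B libraries lay far apart (SE 0.22, adjusted p = 0.0237), and without NC replicate 1 or NC replicate 2 it was no longer called (adjusted p = 0.0689 and 0.0647). RPL18 had 1527 and 1565 TPM in NC and 932 and 977 TPM in sh-ANP32B, with a log2 fold change of -0.70 (SE 0.039, adjusted p = 0.000196). RPL38, a 60S protein known in mice for its part in the translation of Hox mRNAs, had 239 and 283 TPM in NC and 168 and 152 TPM in sh-ANP32B, also -0.70 (adjusted p = 0.00241). All 3 genes had separate groups.

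The stalk of the 60S subunit, where the elongation factors land, is built on RPLP0 with RPLP1, RPLP2 and the neighbouring RPL12. All 4 genes fell, to different degrees. RPL12 had 2273 and 2265 TPM in NC and 1591 and 1574 TPM in sh-ANP32B, a log2 fold change of -0.52 (adjusted p = 0.000237). RPLP2 had 1331 and 1409 TPM in NC and 997 and 985 TPM in sh-ANP32B, with -0.47. RPLP0, often used as a reference gene in RT-PCR, had 3614 and 3369 TPM in NC against 2692 and 2798 TPM in sh-ANP32B, with -0.35 (adjusted p = 0.00286). In RPLP0, RPLP2 and RPL12 the groups were well apart. RPLP1 had 2044 and 1888 TPM in NC and 1732 and 1797 TPM in sh-ANP32B. Its change of -0.16 (SE 0.050) was just past the threshold (adjusted p = 0.0493), it passed under 5 of 11 alternatives, and after quantile normalization it turned to 0.06. RPLP1 was also not called without NC replicate 1 (adjusted p = 0.152) or either sh-ANP32B library (adjusted p = 0.157 and 0.0688).

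RPL5 and RPL11, which form a particle with the 5S ribosomal RNA that can bind MDM2 outside the ribosome, both fell. RPL5 had 1585 and 1553 TPM in NC and 1158 and 1132 TPM in sh-ANP32B, a log2 fold change of -0.45 (adjusted p = 0.000395). RPL11 had 2435 and 2498 TPM in NC and 1907 and 1881 TPM in sh-ANP32B, a log2 fold change of -0.38 (adjusted p = 0.000670). The replicates of both genes were close together and their groups did not overlap.

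RPL10, which completes the 60S subunit late in its assembly, had 1833 and 1659.95 TPM in NC and 1318 and 1243 TPM in sh-ANP32B, with a log2 fold change of -0.45. RPL10 shares 1651 exonic bases with DNASE1L1 on the opposite strand, and the strand handling was not given in the sources used here. RPL3, a core protein near the site where peptide bonds form, had 2901 and 2639 TPM in NC and 2135 and 2122 TPM in sh-ANP32B, with -0.38. RPL13A, known for a part in the silencing of inflammatory mRNAs outside the ribosome, had 2636 and 2625 TPM in NC and 2114 and 2139.7 TPM in sh-ANP32B, with -0.31. RPL10, RPL3 and RPL13A all fell, at adjusted p = 0.00247, 0.00288 and 0.00117.

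RPL15, RPL7L1, RPL28, RPL35A and RPL26L1 were the 60S members that were not called. RPL15, a core protein of the 60S subunit, had 964 and 932 TPM in NC and 886 and 894 TPM in sh-ANP32B, a log2 fold change of -0.09 with a 95% interval from -0.18 to -0.0034 (adjusted p = 0.0836). Its groups were separate, and its whole interval lay above the median change of the 60S genes. RPL15 was called lower with median-of-ratios scaling (-0.19, adjusted p = 0.0189) and with its pseudogenes added (-0.12, adjusted p = 0.0350). RPL28 had 1187 and 580.3 TPM in NC and 466 and 1234 TPM in sh-ANP32B, so one library of each group was high and one was low. No direction can be given for RPL28 (-0.13, SE 0.52, adjusted p = 0.861). RPL35A had 541 and 571 TPM in NC and 569 and 379.9 TPM in sh-ANP32B, and a log2 fold change of -0.26 (adjusted p = 0.286). The low value of RPL35A came from sh-ANP32B replicate 2 alone, and without that library the fold change was 0.03. Without sh-ANP32B replicate 1 it was -0.55 and was called (adjusted p = 0.00149). Across the family, 12 members differed by more than 1.2 times between the libraries of a group, and 6 of these 12 were called.

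The members also include paralogs, which resemble another ribosomal protein and can replace it or act elsewhere. Of the 5 paralogs listed, RPL22L1 and RPL39L fell and the other 3 were not called. RPL22L1 had 65.6 and 50.01 TPM in NC and 27.0 and 43.0 TPM in sh-ANP32B, with a log2 fold change of -0.73 (SE 0.23, adjusted p = 0.0494), and it passed under 5 of 11 alternatives. It was not called without NC replicate 1 (-0.54, adjusted p = 0.172) or without sh-ANP32B replicate 1 (-0.41, adjusted p = 0.101). Its partner RPL22, which represses RPL22L1 in other settings, had 517 and 492 TPM in NC and 431 and 425 TPM in sh-ANP32B, a log2 fold change of -0.24 (adjusted p = 0.00599). RPL22L1 made up 11.3% and 9.23% of the pair in NC and 5.88% and 9.20% in sh-ANP32B, so sh-ANP32B replicate 2 was at the level of NC replicate 2. RPL39L, known from testis and tumors, had 23.3 and 22.3 TPM in NC and 14.6 and 13.4 TPM in sh-ANP32B, with a log2 fold change of -0.67 (adjusted p = 0.00248). RPL39, its partner at the end of the exit tunnel, had 598 and 639 TPM in NC and 491 and 547 TPM in sh-ANP32B, with -0.25 (adjusted p = 0.0232). RPL39 passed under 8 of 11 alternatives, and it was not called after quantile normalization (adjusted p = 0.0637), without NC replicate 2 (adjusted p = 0.0844) or without sh-ANP32B replicate 1 (adjusted p = 0.0626). The share of RPL39L in the pair was 3.76% and 3.37% in NC against 2.89% and 2.40% in sh-ANP32B, with separate groups.

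RPS27L, RPL7L1 and RPL26L1 were the paralogs that were not called. RPS27L had 6.90 and 8.41 TPM in NC and 8.26 and 9.59 TPM in sh-ANP32B, the highest fold change of the family at 0.20 (95% interval from -0.17 to 0.57, adjusted p = 0.314). The groups of RPS27L overlapped. RPS27 had 770.1 and 818 TPM in NC and 578 and 629 TPM in sh-ANP32B and fell by 0.40 on the log2 scale, so that RPS27L made up 0.887% and 1.02% of the pair in NC and 1.41% and 1.502% in sh-ANP32B. RPL7L1, which acts in the assembly of the 60S subunit, had 166 and 165 TPM in NC and 158 and 160.5 TPM in sh-ANP32B, a log2 fold change of -0.06 (adjusted p = 0.275), and with median-of-ratios scaling it was called lower at -0.15 (adjusted p = 0.0295). RPL7 had 2356 and 2294 TPM in NC and 1851 and 1808 TPM in sh-ANP32B, with -0.35, and the share of RPL7L1 was 6.58% and 6.72% in NC and 7.86% and 8.15% in sh-ANP32B. RPL26L1 had 13.3 and 20.1 TPM in NC and 9.25 and 16.02 TPM in sh-ANP32B, with overlapping groups and a log2 fold change of -0.39, close to the median of the family, but with a wide spread (adjusted p = 0.312). RPL26, a protein at the opening of the exit tunnel, had 1591 and 1566 TPM in NC and 1343 and 1279 TPM in sh-ANP32B and fell by 0.27 on the log2 scale, a call that was lost after quantile normalization (adjusted p = 0.0781). The share of RPL26L1 differed more between replicates than between groups. These shares were not tested.

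**Figure D5:**
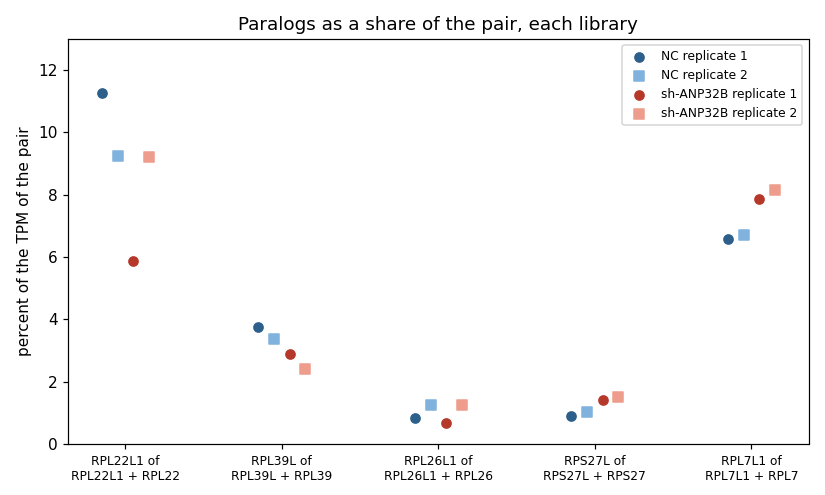
TPM of each paralog as a percent of the summed TPM of the paralog and its partner, with a point for each library. The sh-ANP32B points of RPS27L and RPL7L1 lie above and those of RPL39L below the NC points, and those of RPL22L1 and RPL26L1 are spread as widely within a group as between groups.

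Grouped by place in the ribosome, the 8 listed genes whose proteins line the exit tunnel of the 60S subunit or its opening all fell, with a median of -0.30. The 9 listed genes for proteins of the decoding region, the mRNA path and the bridges between the subunits also all fell. Their median was -0.51, and 5 of them passed the p limit and the fold limit of 0.5. Both limits were passed downward by 26.8% of all members and by 10.8% of all tested genes. For comparison, 90.2% of all members fell. The list of 9 is not complete: it holds neither RPS16 (-0.83) nor RPS9 of the mRNA entry region (-0.16), and RPS9 was not called. The 47 members with a TOP tract at an annotated start had a median log2 fold change of -0.42, with 44 called lower and a range from -0.83 to -0.13. The 19 tested members without one in the table had a median of -0.38, with 15 called lower and a range from -0.83 to 0.20. Those without a tract that were not called were RPL15 and the paralogs RPL26L1, RPL7L1 and RPS27L, and RPS27L set the top of the range. Those with a tract that were not called were RPL28, RPL35A and RPS9. The difference between members with and without a tract was not tested.

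FAU, RACK1 and RPL36AL, genes of ribosomal proteins that the symbol rule leaves out, also fell. FAU, which encodes a ubiquitin-like fusion with the 40S protein eS30, had 477 and 487 TPM in NC and 374 and 374 TPM in sh-ANP32B, with a log2 fold change of -0.36 (adjusted p = 0.000752). RACK1, a signalling scaffold on the 40S head, had 1718 and 1708 TPM in NC and 1369 and 1296 TPM in sh-ANP32B, also -0.36 (adjusted p = 0.00130). RPL36AL, a 60S paralog, fell by 0.47 on the log2 scale.

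The genes that serve the ribosomal proteins were lower in most cases. Of 16 listed chaperones and import factors of ribosomal proteins, 12 fell and 1 rose, with a median of -0.48. At an adjusted p below 0.05 in limma, 19.7% of all tested genes fell and 26.0% rose. The import receptor TNPO1 had 46.5 and 48.7 TPM in NC and 22.5 and 21.9 TPM in sh-ANP32B (log2 fold change -1.07). IPO5, another importin, had 263 and 265 TPM in NC and 153 and 151 TPM in sh-ANP32B (-0.79). KPNB1 and NAP1L1 fell by 0.76 and 0.90 on the log2 scale. HEATR3, which takes part in the import of RPL5, rose from 24.1 and 21.7 TPM to 30.8 and 27.9 TPM (0.34, adjusted p = 0.0267). HEATR3 passed under 8 of 11 alternatives, and it was not called with median-of-ratios scaling (adjusted p = 0.0831), without NC replicate 2 (adjusted p = 0.103) or without sh-ANP32B replicate 1 (adjusted p = 0.106).

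Of 17 other mRNAs known for TOP tracts, mostly translation factors, 15 fell and 1 rose, with a median of -0.46. By the same rule 19.7% of all tested genes fell and 26.0% rose. Of the tested genes with at least 100 TPM that are no members, 42.4% fell. HNRNPA1, a splicing factor, fell by 1.00 on the log2 scale and NPM1, a nucleolar chaperone, by 0.83. VIM, the intermediate filament vimentin, rose by 0.48, from 886 and 913 TPM to 1242 and 1272 TPM. EEF1G, which encodes a subunit of elongation factor 1, had the lowest log2 fold change of the list at -2.29. Its level was 1958 and 1824 TPM in NC and 309 and 480 TPM in sh-ANP32B. Exons shared with other genes were looked up only for the members, so whether such sharing affects the EEF1G value was not tested.

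Of 11 genes of the mTOR and LARP1 axis that acts on TOP mRNAs, 5 fell and none rose in limma at an adjusted p below 0.05, with RPTOR at 0.31 (adjusted p = 0.0619) the 1 gene that was higher before adjustment. Of all tested genes 19.7% fell, and of the abundant genes that are no members 42.4%. EIF4EBP1, an inhibitor of the cap-binding protein EIF4E, had 412 and 408 TPM in NC and 195.5 and 205 TPM in sh-ANP32B (-1.03). MLST8, a subunit of the mTOR complexes, fell by 0.70 on the log2 scale, and LARP1 by 0.41. MTOR itself had 51.8 and 57.2 TPM in NC and 57.1 and 56.0 TPM in sh-ANP32B and was not called. Of 9 transcription factors known at ribosomal protein promoters or in ribosome production, MYC, E2F1 and NRF1 fell and SP1 rose. Of all tested genes 19.7% fell and 26.0% rose. MYC had 376 and 369.9 TPM in NC and 239.9 and 236 TPM in sh-ANP32B, a log2 fold change of -0.65 (adjusted p = 0.000191). E2F1 fell by 1.18 on the log2 scale and NRF1 by 0.53, and SP1 rose by 0.40. The YY1 and GABPA genes, whose proteins bind many ribosomal protein promoters, were not called, at -0.12 and 0.06.

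Markers of other states moved with the groups beside the ribosomal protein genes. Of 14 monocyte markers, 12 were listed and 11 of these rose, against 26.0% of all tested genes. The listed markers had a median log2 fold change of 2.45. Their summed level was 1605 and 1635 TPM in NC and 9069 and 9297 TPM in sh-ANP32B, led by LYZ and CST3, and CD14 and VCAN were not listed. All 10 listed proliferation markers fell, against 19.7% of all tested genes. These markers had a median of -1.12, and their summed level was 2387 and 2397 TPM in NC and 1091 and 1105 TPM in sh-ANP32B. The part of either change in the lower share of the ribosomal protein genes was not tested.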

How the data were processed

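The deposited table holds TPM per gene for 4 MV4-11 libraries made with the TruSeq RNA kit. Per the submitters' notes, the authors aligned reads to hg38 with HISAT2 2.0.5. The quantifier, its annotation and the strand handling are not given in the sources used here, and the unit was read from the values, which sum to nearly the same total in each library. The depth is unknown. The listed genes have a mean of at least 0.5 TPM.

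Identifiers were matched to GENCODE 44 (17290 of 18885). The genes tested had 1 TPM or more in 2 or more libraries. They were tested on log2(TPM + 1) with limma 3.58.1 (lmFit, eBayes with trend) in R 4.3.3, NC against sh-ANP32B, with Benjamini-Hochberg adjustment over all 16937 tested genes. Fold changes on this scale understate those of low genes. The study's own test needs counts and was not repeated. The script was tested on simulated data. Shares were compared with an exact permutation test in scipy 1.17.1. Python 3.11.15 and matplotlib 3.10.9 were used for tables and plots.

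The members and lists were chosen with earlier results of these data known, so no test over the members was made. Named in full were the 6 members with the lowest and the 6 with the highest fold change, the paralogs, the stalk and 5S genes, a list of well-known members, and members whose call differed from most of their subunit, and from other lists up to 4 genes with the lowest adjusted p and those against their list's direction. Not all of the latter are given. A few genes of the lists are not reported here, among them 1 ribosomal protein gene outside the symbol rule.

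Promoter starts came from RefSeq on GRCh38.p14. Alternatives were the replicate number as a block, no filter, a pseudocount of 0.1, median-of-ratios scaling, quantile normalization, totals without mitochondrial genes and members, each library left out and, chosen after seeing the data, named pseudogenes added to each member.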

Additional observations from a re-analysis of the deposited data

How the results depend on the processing

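Between 64 and 76 members fell at an adjusted p below 0.05 under every alternative that was run, against 74 in the test as reported. With median-of-ratios scaling 41 members passed the limits of an unadjusted p below 0.05 and a log2 change beyond 0.5, in place of 22, and the medians were -0.50 over all members, -0.52 for 40S and -0.49 for 60S genes. After quantile normalization 10 passed those limits, and the medians were -0.29, -0.34 and -0.26. With totals that left out mitochondrial genes and members, the 60S median was -0.42. Without mitochondrial genes, the difference of the members' share was -3.36 percentage points. With each library left out, 67 to 74 members fell, 0 to 1 rose (RPS15A, without sh-ANP32B replicate 1), 21 to 24 passed those limits, and the medians ran from -0.44 to -0.40 over all members, -0.45 to -0.40 for 40S and -0.42 to -0.40 for 60S genes, with a difference of the share from -3.14 to -2.94 points. Where a library is left out, the lone sample of its group is assumed to vary like the other group.

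Directions turned for RPS15A with median-of-ratios scaling (-0.074), and after quantile normalization for RPLP1 (0.058). With a library left out, the fold change ranged from -0.44 to 0.49 for RPS15A, -0.83 to 0.57 for RPL28 and -0.55 to 0.033 for RPL35A. The cause was not tested.

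With the replicate number as a block, 72 members fell, RPL22L1 (adjusted p = 0.0790) and RPLP1 (adjusted p = 0.0846) were not called, and RPL26L1 was (adjusted p = 0.0422). The deviations of same-numbered libraries had a correlation of -0.0232 over all tested genes. The labels give only a replicate number, and this value cannot show whether same-numbered libraries shared a culture or batch. TPM keep no read numbers, so the counting error of the low paralogs cannot be given.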

Other observations

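The 78 mitochondrial ribosomal protein genes, which serve a separate ribosome, moved in the same direction as the cytosolic ones with more spread. Of these, 50 fell and 2 rose, against 19.7% and 26.0% of all tested genes. Their median was -0.34 on the log2 scale and their range -0.81 to 0.68. Among the cytosolic genes, the 28 members with a snoRNA gene inside all fell, with a median of -0.43, and 46 of the 54 others fell, with a median of -0.40. The 12 members on chromosome 19, RPS15, RPS16, RPL18, RPS19, RPS9 and RPL28 among them, had a median of -0.52 with 10 lower, and the 70 elsewhere had a median of -0.40 with 64 lower. Of 18 members linked to Diamond-Blackfan anemia, 16 fell, with a median of -0.43, and RPL15 and RPL35A were the ones not called. For comparison, 90.2% of all members fell. These differences between groups of members were not tested.

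Processed pseudogenes can take up reads of the genes they were copied from. The table listed 242 pseudogenes named after members, which held 0.621% and 0.634% of the TPM in NC and 0.472% and 0.482% in sh-ANP32B. Of 186 tested, 49 fell and 18 rose, with a median of -0.22. Among all tested genes 19.7% fell and 26.0% rose. Adding the pseudogenes to each member gave 75 members that fell. Across the 82 members, the log2 fold change had a Pearson correlation of -0.18 with the log2 NC level and 0.24 with transcript length. It was -0.27 with transcript GC content and 0.04 with the number of annotated pseudogenes. The Spearman correlations were -0.05, 0.17, -0.28 and 0.10 in the same order. Over the tested genes, the Pearson correlation was -0.34 with level (16937 genes). It was -0.02 with length and 0.10 with GC content (15558 genes). These are descriptions across genes that share the same 4 libraries.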
